A study of Homo sapiens with 6 samples.

Results

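The 10 genes described here are grouped as SCF and CRL4 ubiquitin ligases of the cell cycle, with CKS2 included as the relative of the cofactor CKS1B. They are SKP2, FBXW7, DTL, CKS1B, CKS2, SKP1, DDB1, CUL1, CUL4A and RBX1. They were picked by name, with earlier results of these data known, from the 23228 gene names of the deposited table. The table held all 10. The cells were SaOS-2, an osteosarcoma line that by the study's text lacks RB and p53, carrying a Tet-inducible p21 vector. The p21 OFF group was 3 untreated libraries of these cells (0 μg/ml doxycycline) and the p21 ON group 3 libraries of the same cells after 24 h with 1 μg/ml doxycycline, so both groups carried the vector and lacked RB. No library with the drug but without the vector was analysed here, and the effects of doxycycline and of p21 therefore cannot be told apart. Whether the inducible line is 1 clone is not given in the sources used here.

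The SCF ligase is built on the cullin CUL1, which holds the RING protein RBX1 at one end and the adaptor SKP1 at the other, and SKP1 carries an exchangeable F-box protein that binds the substrate. SKP2, with its cofactor CKS1B, marks p27 for destruction and so permits CDK2 activity, whereas FBXW7 recognizes phosphorylated cyclin E and MYC. In CRL4 the cullin is CUL4A or CUL4B, the adaptor is DDB1, and the receptor DTL (also called CDT2) recognizes CDT1 and p21 when they are bound to PCNA on chromatin during S phase. CKS2 is the close relative of CKS1B, and both bind cyclin-dependent kinases.

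In GENCODE 44 on GRCh37 the SCF genes lie at chr5:36152091-36196951 (SKP2, plus strand), chr4:153241696-153457244 (FBXW7, minus), chr1:154947129-154951727 (CKS1B, plus), chr9:91926110-91931618 (CKS2, plus), chr5:133484626-133512655 (SKP1, minus), chr7:148395006-148498202 (CUL1, plus) and chr22:41347351-41369313 (RBX1, plus). The CRL4 genes lie at chr1:212208895-212280742 (DTL, plus), chr11:61066923-61110068 (DDB1, minus) and chr13:113862507-113921422 (CUL4A, plus). Values are sums over each whole gene. Exons of other genes on the opposite strand cover 11.1% of the exon bases of CUL1, 5.59% of those of CUL4A (by PCID2) and at most 3.18% of those of the other 8 genes, and 8.95% of those of SKP1 are shared with another gene on its own strand. Whether the counting used strand is not given in the sources used here, so reads in these stretches are of uncertain origin.

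The transcript of CDKN1A, the p21 gene itself, was measured at 1257, 1187 and 1355 normalized counts without induction and at 40470, 43863 and 46739 after it, which matches the labels. Transcripts of the vector and of the cells' own gene cannot be told apart in these values. RB1 was at 555 ± 66.8 and 654 ± 39.7 normalized counts without and with induction (SD, n = 3 per group), so transcript of RB1 was present in cells described as lacking the protein. Of 8 osteoblast markers, RUNX2, SP7, ALPL and COL1A1 were abundant and IBSP was lower with p21 ON (129 ± 8.66 and 99.0 ± 3.20 normalized counts, SD, n = 3 per group, limma adjusted p = 0.0264, but 0.0595 with a trend on transcript length removed, 0.110 by DESeq2 and 0.0796 without p21 OFF replicate 1), while COL1A2 and SPP1 averaged under 5 normalized counts in both groups and BGLAP was at 0 in all 6 libraries. Among 5 markers of other cell types, EPCAM was highest, with 330.2 ± 38.9 and 313 ± 18.6 normalized counts (SD, n = 3 per group), PTPRC and PECAM1 averaged at most 7.42 and 13.5, and CD3E and ALB averaged under 1.

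A library stood apart from its replicates. The chi-square per gene between p21 OFF replicate 1 and the other p21 OFF libraries was 8.49 and 9.26, while the 4 other replicate pairs were at 2.71 to 3.98. Without it, all 4 ligase genes called below were called again, with log2 fold changes of -1.41 for CKS1B, -1.29 for CKS2, -0.18 for SKP1 and -0.26 for RBX1, and DDB1 and DTL were called lower too. Over all genes, 1381 were then higher and 1617 lower.

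After p21 induction 4 of the 10 ligase genes were lower and none was higher. CKS1B and CKS2 each fell about 2.5-fold, and RBX1 and SKP1 fell by a smaller margin, 1.30-fold and 1.21-fold. The receptors SKP2, FBXW7 and DTL, the adaptor DDB1 and the cullins CUL1 and CUL4A did not pass the test. The test was limma with Benjamini-Hochberg adjustment over the 13255 genes that averaged at least 10 normalized counts, on a log2 scale with 1 added to each value, and all 10 genes entered it. Fold changes are given on that scale, and an adjusted p-value under 0.05 counted as a call. Of all genes tested, 12.7% were lower and 10.5% higher by the same rule, 23.2% in either direction. Scaled by library size alone, 2034 genes were higher and 1194 lower, against 1393 and 1681 here. On whole reads, edgeR called the same 4 ligase genes lower and none higher, with 12.6% of all genes lower and 10.8% higher, and so did DESeq2, with 11.6% lower and 8.0% higher. At an unadjusted p under 0.05 in limma, CUL1 and DTL were also lower and no ligase gene was higher, a cut that 19.1% of all genes tested passed in the lower and 17.8% in the higher direction. The median log2 fold change of the 10 genes was -0.14, against 0.0056 over all genes tested. Libraries held 12795490 to 21975045 reads on genes with p21 OFF and 12918390 to 16630552 with p21 ON.

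**Figure D1:**
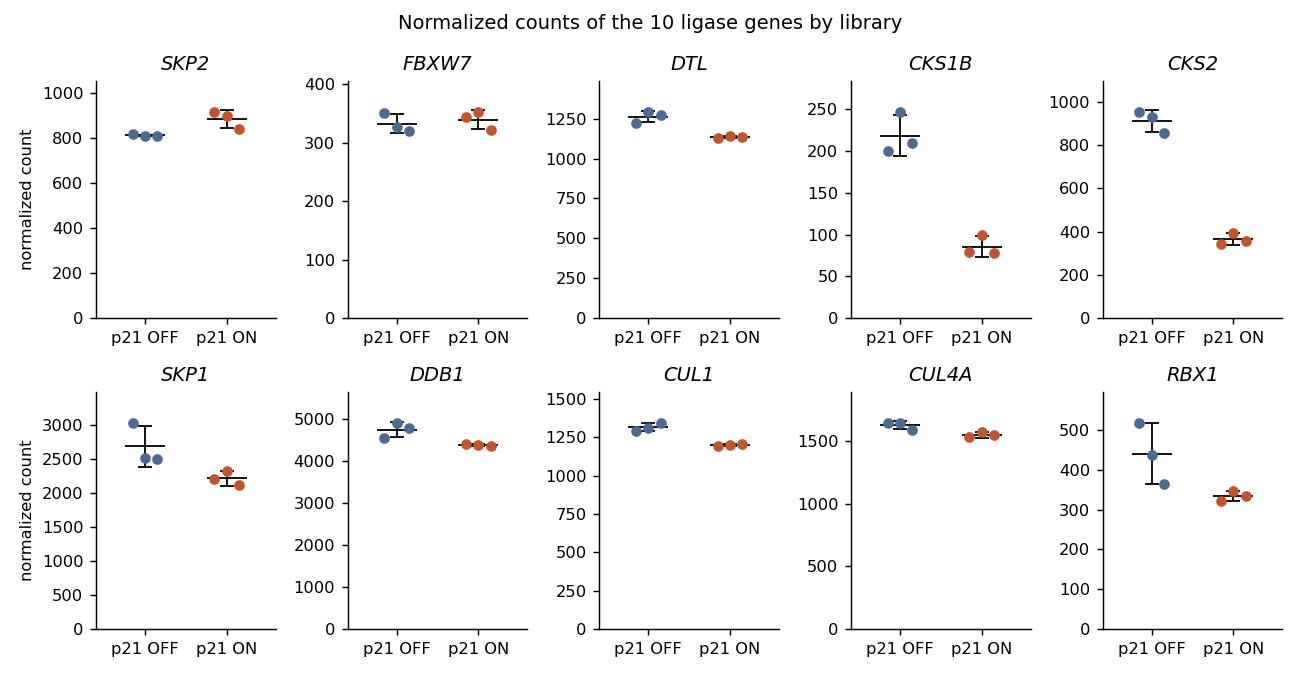
Normalized counts (vertical axes, each from 0) of the 10 ligase genes in the 3 p21 OFF and 3 p21 ON libraries. Points are libraries, and the bars are the mean and SD of 3. The drop of CKS1B and CKS2 is wide of the replicate spread, the groups of FBXW7 overlap, and the groups of the other genes are separate but close.

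CKS1B, the cofactor of SKP2, and its relative CKS2 showed the largest changes. CKS2 was at 953, 929 and 854 normalized counts with p21 OFF and at 341, 395 and 358 with p21 ON. CKS1B was at 199.7, 247 and 209 with p21 OFF and at 79.2, 99.9 and 77.9 with p21 ON. For both genes the gap between the groups was wider than the range within either group. The log2 fold change was -1.32 for CKS2 (SE 0.08, limma adjusted p = 5.03e-10) and -1.34 for CKS1B (SE 0.13, limma adjusted p = 3.86e-07). In bulk RNA, fewer cells with the transcript and less transcript per cell cannot be told apart. Both genes are in the study's high-stringency G2/M list, whose 99 other measured genes had a median log2 fold change of -1.14, and 91 of the 99 were lower by limma.

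The 2 CKS genes differed in how uniquely their reads can be placed. The libraries were read for 51 bases, and 85.7% of the 729 windows of 51 bases along the canonical CKS1B transcript have an exact copy elsewhere in the GRCh37 genome, on chromosomes 5, 8, 10, 11, 14 and X. For CKS2 it was 85 of 566 windows, with the copies on chromosome 9. CKS1B was counted from 68 to 316 reads per library and CKS2 from 293 to 1189. The level of CKS1B is therefore uncertain, since counting may have dropped or split reads that match several places, and how such reads were treated is not given in the sources used here.

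The promoter windows of both CKS genes hold the CHR element that MuvB complexes bind at G2/M genes, at nearly the same distance from the start. They are shown with that of DTL because these 3 genes are on the study's high-stringency cell cycle lists. The sequences run from 250 bases before to 50 bases after the gene's start, are from RefSeq on GRCh38.p14, and lie on the plus strand at chr1:154974431-154974730 for CKS1B, chr9:89310945-89311244 for CKS2 and chr1:212035498-212035797 for DTL. Capitals mark a CHR (TTTGAA or TTCGAA, either strand) or an E2F element (TTTGGCGC, TTTGCCGC, TTTCGCGC or TTTCCCGC, either strand).
CKS1B: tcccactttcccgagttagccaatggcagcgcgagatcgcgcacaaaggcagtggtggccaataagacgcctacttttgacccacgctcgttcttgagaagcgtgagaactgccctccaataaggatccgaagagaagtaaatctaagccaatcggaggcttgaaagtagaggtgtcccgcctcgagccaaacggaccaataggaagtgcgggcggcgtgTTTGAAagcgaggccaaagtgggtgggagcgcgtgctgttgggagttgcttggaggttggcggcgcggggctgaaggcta
CKS2: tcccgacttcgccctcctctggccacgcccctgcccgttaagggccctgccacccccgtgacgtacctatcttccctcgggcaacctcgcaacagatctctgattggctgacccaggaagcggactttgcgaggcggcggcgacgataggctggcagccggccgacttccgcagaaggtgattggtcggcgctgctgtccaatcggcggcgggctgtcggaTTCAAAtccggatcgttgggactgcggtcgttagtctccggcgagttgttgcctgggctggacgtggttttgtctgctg
DTL: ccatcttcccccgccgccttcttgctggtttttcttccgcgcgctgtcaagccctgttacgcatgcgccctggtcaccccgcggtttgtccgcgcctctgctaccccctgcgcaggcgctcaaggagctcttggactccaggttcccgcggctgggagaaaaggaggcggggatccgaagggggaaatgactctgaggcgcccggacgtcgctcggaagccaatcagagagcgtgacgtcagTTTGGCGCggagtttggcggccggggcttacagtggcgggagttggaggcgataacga
The CHR begins 30 bases before the start in CKS1B and 29 bases before it in CKS2, where TTTGAA is read on the opposite strand. A CCAAT box, the element bound by NF-Y, lies upstream of each, beginning 54 bases before the start in CKS1B and 52 in CKS2. The DTL window has no CHR by these letters and has an E2F element beginning 8 bases and a CCAAT box beginning 31 bases before the start. Of 35116 promoter windows of this length, 16.4% hold a CHR, 3.31% an E2F element, 34.6% a CCAAT box and 6.38% both a CHR and a CCAAT box. The 10 genes have 20 such windows, since some have several starts, and 4 windows hold a CHR (CKS1B, CKS2, 1 of CUL1 and 1 of FBXW7) and 2 an E2F element (DTL and 1 of CUL4A). A CCAAT box was in 6 of the 20 windows, from 5 genes (CKS1B, CKS2, DTL, CUL1 and FBXW7). The SKP2, SKP1, RBX1 and DDB1 windows hold neither. A match of letters is a description of the window and does not show binding.

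Among the substrate receptors, SKP2 was at 815, 808 and 810.1 normalized counts with p21 OFF and at 915, 898 and 839 with p21 ON. The p21 ON libraries were all above the p21 OFF libraries, but the log2 fold change of 0.12 did not pass the test (95% confidence interval from -0.02 to 0.26, limma adjusted p = 0.192). Over all genes tested, 19.1% were apart in this direction, 21.3% in the lower one and 40.4% in either. SKP2 is in the study's low-stringency G1/S list, whose 535 measured genes apart from SKP2 and DTL had a median log2 fold change of 0.0022. DTL, a gene of the high-stringency G1/S list, was at 1223, 1292 and 1274 normalized counts with p21 OFF and at 1127, 1142 and 1136 with p21 ON. Its 3 p21 ON libraries were all lower and close together, and the log2 fold change was -0.15 (95% confidence interval from -0.28 to -0.02, limma adjusted p = 0.0794). Without p21 OFF replicate 1 it was called, at -0.18 (limma adjusted p = 0.0338). The 56 other measured genes of that list had a median of 0.10. FBXW7 ranged from 319 to 350.4 normalized counts with p21 OFF and from 321 to 352 with p21 ON, and the groups overlapped. Its log2 fold change was 0.03 (95% confidence interval from -0.15 to 0.21, limma adjusted p = 0.837), and it was 0.07 by library size scaling and between 0.000048 and 0.07 with libraries left out in turn, while the sign turned to -0.05 when a trend on transcript length was removed.

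The adaptor SKP1 was at 3030.5, 2512 and 2504 normalized counts with p21 OFF and at 2196, 2319.9 and 2115 with p21 ON. RBX1, the RING subunit that both ligases share and that recruits the ubiquitin-conjugating enzyme, was at 519, 438 and 365 with p21 OFF and at 321, 347 and 335 with p21 ON. In both genes p21 OFF replicate 1 was the highest library, and the groups did not overlap. The log2 fold change was -0.27 for SKP1 (SE 0.07, limma adjusted p = 0.0122) and -0.38 for RBX1 (SE 0.10, limma adjusted p = 0.0142). Neither call held without p21 ON replicate 1 (adjusted p = 0.0573 for SKP1 and 0.0703 for RBX1 from limma) or without p21 ON replicate 3 (0.0766 and 0.0607). In those fits, in the same order, the log2 fold change was -0.27 and -0.24 for SKP1 and -0.35 and -0.38 for RBX1. None of the 51-base windows of RBX1 had an exact copy elsewhere, and 6.27% of those of SKP1 did.

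DDB1, the CRL4 adaptor, was at 4544, 4902 and 4771 normalized counts with p21 OFF and at 4406, 4371 and 4343 with p21 ON. Its log2 fold change was -0.12 (95% confidence interval from -0.23 to 0.0042, limma adjusted p = 0.150), and it was called without p21 OFF replicate 1 (limma adjusted p = 0.0378). The scaffold CUL1 was at 1294, 1308 and 1345 normalized counts with p21 OFF and at 1194, 1200.2 and 1205 with p21 ON, and limma put the log2 fold change at -0.13 with an adjusted p of 0.121. CUL4A was at 1645, 1639 and 1588 with p21 OFF and at 1527, 1573 and 1543 with p21 ON, and limma put the log2 fold change at -0.07 with an adjusted p of 0.424. The CUL4A value was -0.15 with the trend on transcript length removed (limma adjusted p = 0.0584) and -0.03 by library size scaling (limma adjusted p = 0.792), which also moved DDB1 to -0.07 (limma adjusted p = 0.371). In all 3 genes the p21 ON libraries were all lower by a narrow margin. Counting every ligase gene, the groups were apart in the lower direction for 8 genes and in the higher direction for 1, SKP2, against the shares over all genes given above for SKP2. The exact two-sided permutation test of a single gene cannot go below p = 0.1 with 3 libraries against 3.

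**Figure D2:**
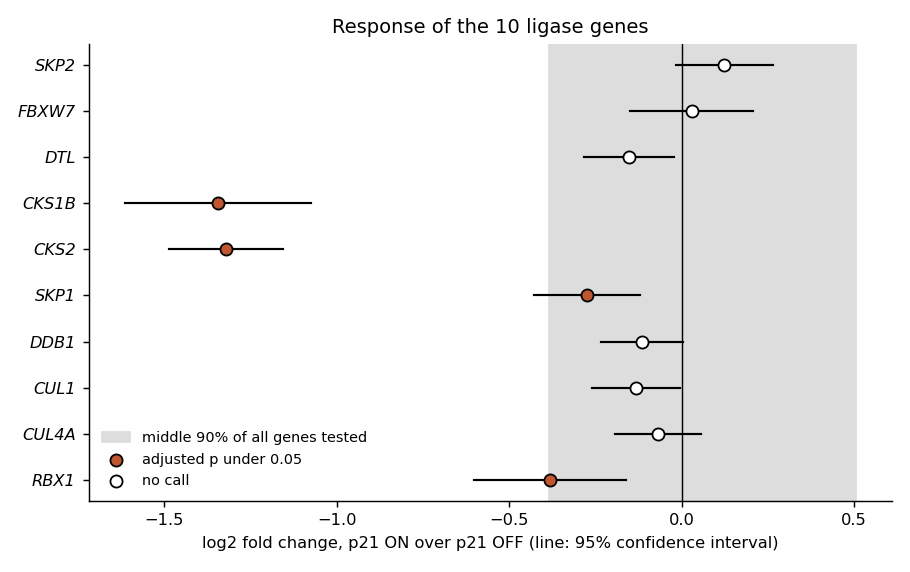
Log2 fold change of the 10 ligase genes (horizontal axis, p21 ON over p21 OFF) with the 95% confidence interval from limma; filled points passed the test. The grey band, from -0.39 to 0.505, holds the middle 90% of all genes tested, and only the points of CKS1B and CKS2 lie outside it.

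Per kilobase of exons in the annotation, CKS2 was the most abundant of the 10 transcripts with p21 OFF, at 1480 ± 84.2 normalized counts per kilobase (SD, n = 3), and FBXW7 the least abundant, at 29.4 ± 1.43 (SD, n = 3). SKP2 stood ninth, at 46.7 ± 0.198 (SD, n = 3). These places were the same with the longest or the canonical transcript as the length, while the order of the other genes changed with it. With p21 ON the level of CKS2 was 592 ± 44.5 normalized counts per kilobase (SD, n = 3), the first by exon length but second to DDB1 with either transcript length. FBXW7 was again lowest, at 30.0 ± 1.41 (SD, n = 3).

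In a ratio of transcripts within a library the scaling between libraries cancels, apart from the pseudocount of 1. A trend on transcript length does not cancel, and the canonical transcripts have 779 bases for CKS1B, 3715 for SKP2 and 9386 for SKP1. The log2 ratio of CKS1B to SKP2, the cofactor to its receptor, was -2.02, -1.71 and -1.95 with p21 OFF and -3.51, -3.16 and -3.41 with p21 ON, a difference of -1.47, or 2.77-fold. The log2 ratio of SKP2 to its adaptor SKP1 was -1.89, -1.63 and -1.63 with p21 OFF and -1.26, -1.37 and -1.33 with p21 ON, a difference of 0.40. In both ratios the groups were separate, with a change in opposite directions (exact two-sided permutation test, p = 0.1 for each, the smallest possible, and 0.15 after Benjamini-Hochberg adjustment over the 6 ratios tested). The log2 ratio of CKS2 to CKS1B was 2.06 ± 0.174 without and 2.08 ± 0.108 with induction (SD, n = 3 per group), so the 2 genes fell by amounts that differed by less than the spread between replicates (exact two-sided permutation test, p = 0.8). The ratio of SKP2 to FBXW7 was higher by 0.09, and that of DTL to DDB1 was lower by 0.04 on the log2 scale, each without overlap (exact two-sided permutation test, p = 0.1 for each). Without p21 OFF replicate 1 the difference was 0.059 for SKP2 to FBXW7, 0.31 for SKP2 to SKP1 and -1.53 for CKS1B to SKP2. The ratio of CUL4A to CUL4B differed by -0.11 with overlapping groups (exact two-sided permutation test, p = 0.2). CUL4B, the second CRL4 cullin, had a log2 fold change of 0.04 (SE 0.06, limma adjusted p = 0.673).

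**Figure D3:**
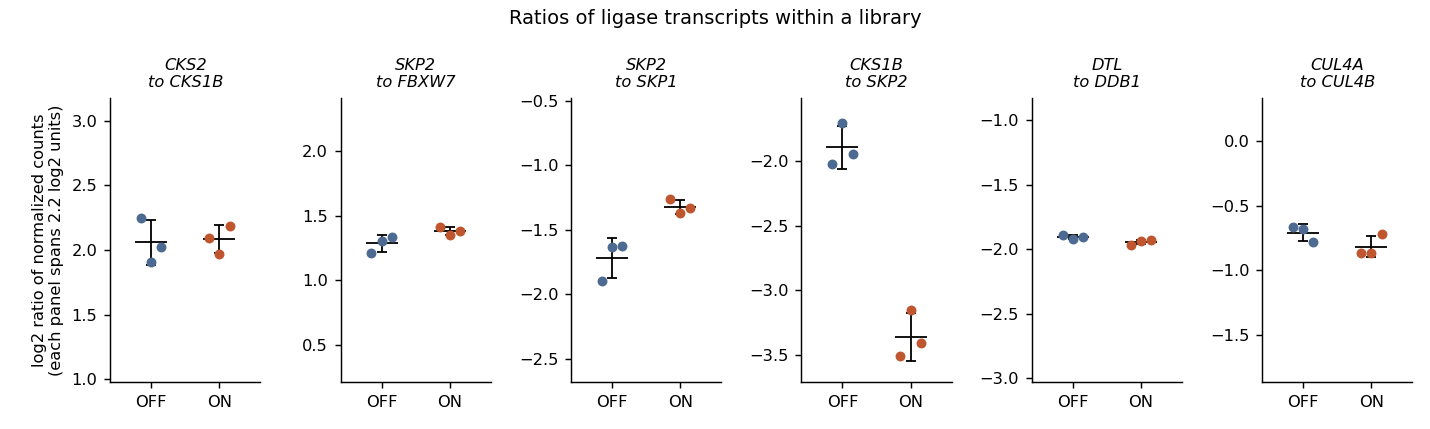
Log2 ratio of normalized counts of paired ligase transcripts within each library (vertical axes, all of the same span), for 3 p21 OFF and 3 p21 ON libraries, with mean and SD. The CKS1B to SKP2 ratio drops by 1.47 and the SKP2 to SKP1 ratio is higher by 0.40, whereas the CKS2 to CKS1B ratio overlaps between groups.

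The other genes of the pathway were read from the same fit, in which 10.5% of all genes tested were higher and 12.7% lower. Of 64 other F-box proteins, 53 passed the filter on low values, and 3 were lower and 1 higher, with a median log2 fold change of -0.0011. FBXO5 (EMI1), an inhibitor of the APC/C in S phase and G2, fell, with means of 1187 ± 29.4 and 709 ± 40.7 normalized counts without and with induction (SD, n = 3 per group), and limma put the log2 fold change at -0.74 with an adjusted p of 2.13e-07. FBXO43 (EMI2), its relative known from meiosis, was weakly expressed and fell by 1.06 on the log2 scale, and CCNF (cyclin F), the receptor of an SCF ligase active in G2, fell by 0.42. FBXL20 rose, with means of 285 ± 37.5 and 462 ± 22.9 normalized counts without and with induction (SD, n = 3 per group), a log2 fold change of 0.70. CCNF is in the study's high-stringency G2/M list, FBXO5 in its low-stringency G2/M list and FBXL20 in its low-stringency G1/S list.

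Of 24 other CRL4 receptors and associated proteins, all were tested, and 2 were lower and the others not called, with a median log2 fold change of -0.08. DCAF15, a receptor known as the target of aryl sulfonamide drugs, fell, with means of 804 ± 28.1 and 481 ± 13.3 normalized counts without and with induction (SD, n = 3 per group), and limma put the log2 fold change at -0.74 with an adjusted p of 3.92e-07. DCAF13, which also takes part in ribosome biogenesis, fell by 0.33. DDB2, the receptor for ultraviolet damage, had a log2 fold change of -0.09 and was not called.

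Of 14 other cullins, RING and ubiquitin-conjugating enzymes, CUL7 rose by 0.47 on the log2 scale, its means being 396 ± 24.0 and 549.8 ± 23.9 normalized counts (SD, n = 3 per group), and the conjugating enzymes UBE2D1 and UBE2G1 fell by 0.31 and 0.28. UBE2D1 was not called by DESeq2 (adjusted p = 0.0552). Conjugation of NEDD8 to the cullin switches these ligases on, and the COP9 signalosome removes it. Of 24 genes of this cycle 5 were lower and 1 was higher, with a median log2 fold change of -0.12. NEDD8 was at 967, 726 and 778 normalized counts with p21 OFF and at 598, 664 and 616 with p21 ON, and limma put the log2 fold change at -0.39 with an adjusted p of 0.00596. As for SKP1 and RBX1, p21 OFF replicate 1 was the highest library. The canonical NEDD8 transcript has 616 bases, and with a trend on transcript length removed the log2 fold change was -0.21 (limma adjusted p = 0.0314). Without p21 OFF replicate 1 it was -0.26 (limma adjusted p = 0.00757). The COP9 subunits COPS7A and COPS2 fell by 0.36 and 0.29, and UBA3, a subunit of the NEDD8-activating enzyme, and COPS3, both named after their values were seen, fell by 0.27 and 0.20. COPS3 was not called with the length trend removed (limma adjusted p = 0.0990) or by library size scaling (0.0998). CAND2, of the family that exchanges substrate receptors on cullins, rose by 0.39.

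**Figure D4:**
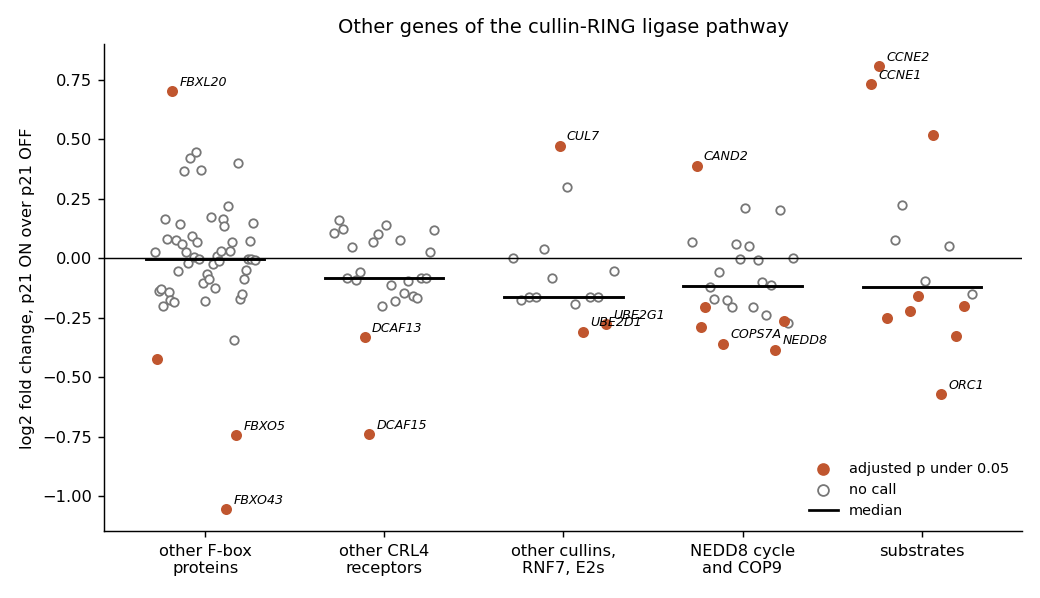
Log2 fold change (vertical axis, p21 ON over p21 OFF) of the other pathway genes that passed the filter, by list. Filled points passed the test, bars are medians, and CDKN1A is left out of the substrates. The medians lie between -0.16 and -0.0011, and most genes in each list but the substrates were not called.

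The transcripts of the ligases' substrates moved in both directions. Of 15 substrates besides CDKN1A, 14 passed the filter, and 3 were higher and 6 lower by limma. Over all genes tested, 10.5% were higher and 12.7% lower. Only 3 substrates were lower without p21 ON replicate 1, where 887 of all genes were lower and 695 higher. The cyclin E genes, whose proteins FBXW7 recognizes, both rose. CCNE1 was at 265, 252 and 240.2 normalized counts with p21 OFF and at 379.5, 428 and 457 with p21 ON, a log2 fold change of 0.73, and CCNE2 had one of 0.81. Of the annotated exon bases of CCNE2, 37.1% overlap genes on the other strand, INTS8 among them. NOTCH1, another FBXW7 substrate, rose by 0.52. CDKN1B, the p27 gene and the best known SKP2 substrate, was at 1393, 1316 and 1280.2 normalized counts with p21 OFF and at 1114, 1134 and 1097 with p21 ON, and limma put the log2 fold change at -0.25 with an adjusted p of 0.00814. Other SKP2 substrates fell, ORC1, the large subunit of the origin recognition complex, by 0.57 and RBL2, the p130 gene, by 0.33. CDT1, the licensing factor that SKP2 and DTL both target, was at 1655, 1633 and 1585 with p21 OFF and at 1580, 1619 and 1959 with p21 ON, so that p21 ON replicate 3 stood above the rest and the groups overlapped (log2 fold change 0.08, limma adjusted p = 0.495). JUN and MCL1, substrates of FBXW7, fell by 0.22 and 0.16, and SETD8, the H4K20 methyltransferase that DTL targets, fell by 0.20. MCL1 was not called by edgeR (adjusted p = 0.0523), and SETD8 was not called by DESeq2 (adjusted p = 0.0623) or without p21 OFF replicate 1 (limma adjusted p = 0.0534). By library size scaling neither was called (limma adjusted p = 0.145 and 0.108). MYC, FOXO1, TDG and POLD4 had log2 fold changes of -0.10, 0.22, -0.15 and 0.05 and were not called, and CDKN1C did not pass the filter. By the study's lists, CCNE1 and CCNE2 are high-stringency G1/S genes and CDKN1B is a high-stringency G2/M gene. ORC1 and CDT1 are in the low-stringency G1/S list and SETD8 in the low-stringency G2/M list. Protein levels, on which the ligases act, were not measured in these libraries.

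Fold changes moved with transcript length in this comparison, and 3 of the 4 ligase genes called have short transcripts. The canonical transcripts are of 616 bases for CKS2, 779 for CKS1B and 1169 for RBX1, and among 1043 tested genes of up to 1200 bases 33.5% were lower, against 11.3% of 11514 longer genes. Across 12557 genes with a length, which are not independent replicates and share the 6 libraries, Spearman's rho of log2 fold change with length was 0.36. After a trend on length was removed from each library, an alternative chosen after seeing the data, all 4 genes were called again, with log2 fold changes of -1.19 for CKS1B, -1.15 for CKS2, -0.27 for RBX1 and -0.43 for SKP1, and DDB1 (-0.15) and DTL (-0.20) were called lower as well. Over all genes, 1192 were then higher and 1872 lower. SKP1 has a long canonical transcript of 9386 bases, and its fold change moved away from 0.

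**Figure D5:**
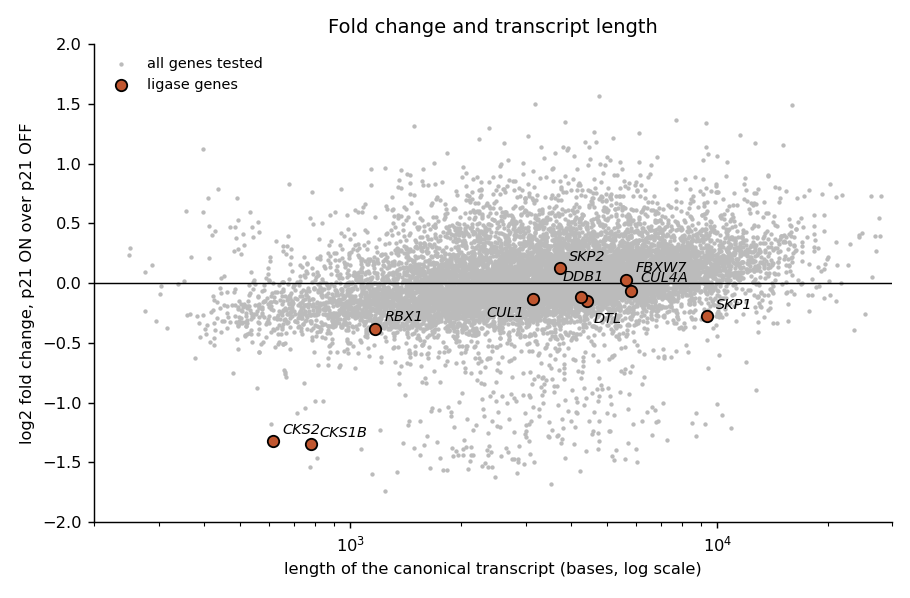
Log2 fold change (vertical axis, p21 ON over p21 OFF) against canonical transcript length (horizontal log axis, bases) for tested genes with a length, with the 10 ligase genes marked; the vertical axis ends at 2, so CDKN1A is not shown. CKS1B and CKS2 sit at the short end at -1.34 and -1.32, and SKP1 is the longest of the 10.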

How the data were processed

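RNA sequencing libraries of SaOS-2 cells were analysed, 3 per group. By the study's methods, the authors made stranded poly(A) libraries, mapped single-end reads to hg19 with STAR, counted them per gene with HTSeq and normalized with DESeq2. Versions, the annotation and the strand setting are not given in the sources used here. The deposited table holds normalized counts, a signal of 0 or more per gene and library. Whole reads were recovered because 100% of the values in every library were multiples of 1 step (tolerance 0.001).

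The main test was limma 3.58.1 with a trend in R 4.3.3 on log2 values (pseudocount 1, mean of at least 10). edgeR 4.0.16 and DESeq2 1.42.0 on recovered reads, other scalings, pseudocounts, filters, a replicate block and left-out libraries were alternatives. On simulated counts limma called 80 of 99 genes changed by 0.5 and 94 of 100 changed by 1 (log2), with 7 unchanged genes called among 13229. The simulation gave every gene the same dispersion and held no outlying library and no trend on length, so its figures may not hold for these libraries. No pair of replicates agreed within counting error (chi-square per gene of 2.71 to 3.98, and of 8.49 and 9.26 for the pairs with p21 OFF replicate 1). Whether replicates are separate cultures is not stated in the labels, so p-values may measure technical spread. The study's methods call the replicates biological, without saying whether they were separate cultures. Positions, lengths and copies are from GENCODE 44 on GRCh37, the build of hg19, with 21017 rows matched, and some names in the table are older symbols (SETD8 is now KMT5A). Members and lists were chosen with earlier results of these data known. The text names all 10 ligase genes, the called genes with the 3 largest changes in each direction per list, every substrate and the marker genes. A gene in the check of the cell line is not reported here.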

Additional observations from a re-analysis of the deposited data

How the results depend on the processing

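The log2 fold changes of the 10 ligase genes and CDKN1A kept their direction in every alternative but one, FBXW7 with the length trend removed (-0.045, not called), an alternative added after seeing the data, as was the use of the canonical transcript for levels. CKS1B and CKS2 were called throughout. At an adjusted p under 0.01, 2 ligase genes were lower, with 616 genes higher and 882 lower overall. There, 1 of the other cullins and enzymes, 3 of the NEDD8 and COP9 genes and 3 substrates were lower. By library size scaling, 2 F-box genes, 3 CRL4 receptors and 2 other cullins or enzymes were higher (also 2 of the last by edgeR). That scaling put 2034 genes higher and 1194 lower over all genes. With the length trend removed, 7 F-box genes, 6 CRL4 receptors and 6 other cullins or enzymes were lower, and over all genes 1192 were higher and 1872 lower. With libraries left out in turn, 2 to 6 ligase genes were lower, the lowest without p21 ON replicate 1 or 3 and the highest without p21 OFF replicate 1. Over all genes 695 to 1486 were then higher and 887 to 1660 lower, both lowest without p21 ON replicate 1. Of F-box genes 1 to 3 were higher and 3 to 5 lower, of CRL4 receptors 1 to 4 lower, of other cullins and enzymes 1 to 2 higher and 1 to 3 lower, of NEDD8 and COP9 genes 3 to 7 lower and of substrates 3 to 5 lower (lowest without p21 ON replicate 1). The causes were not tested. The difference in the CKS2 to CKS1B ratio turned to -0.041 with a pseudocount of 10, and ranged from -0.053 (without p21 OFF replicate 2) to 0.118, with -0.028 without p21 ON replicate 3. Levels per kilobase with p21 OFF, by the longest and then the canonical transcript, were 108.7 and 218.4 normalized counts for SKP2, 187.5 and 280.6 for CKS1B, 405.1 and 418 for CUL1, 285.7 in both for SKP1, 235.5 and 377 for RBX1, 58.8 and 58.9 for FBXW7, 279 in both for CUL4A, 963.1 and 1116 for DDB1 and 282.5 and 286.4 for DTL. Replicate numbers did not pair the samples (correlations of deviations from -0.06 to -0.02), and with the replicate block 4 ligase genes were lower, 0 higher, and 4 substrates rather than 6 were lower. Over all genes, 1407 were higher and 1513 lower with that block. CKS1B, with 68 to 316 reads per library, had the fewest reads of the ligase genes. Whether depth or the handling of reads matching several places set this number was not tested.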
